A study of Drosophila melanogaster with 18 samples.

Results

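The 6 *Hsp70* copies, *Hsp68* and the alphagamma element RNA are 8 of the 15602 genes whose RNA was measured in S2 cells before and after heat shock (HS). They were chosen by name and matched by FlyBase identifier: *Hsp68*, *Hsp70Aa*, *Hsp70Ab*, *Hsp70Ba*, *Hsp70Bbb*, *Hsp70Bb*, *Hsp70Bc* and the noncoding RNA gene alphagamma-element:CR32865 (FBgn0052865). S2 is an established *Drosophila melanogaster* line derived from embryos, with traits of blood cells, and the cells compared here had received no RNAi. The HS group was mixed with an equal volume of hot serum-free medium and held at the HS temperature for 30 min, and the non-HS (NHS) group was collected before HS. There were 2 biological replicates of each, 4 libraries in all, made from poly(A)+ RNA with a directional kit. The level of a gene is given as FPKM, fragments scaled to transcript length and to the mapped fragments of the library, so that genes of different length can be set side by side.

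HSP70 proteins are chaperones that bind exposed stretches of unfolded proteins and release them in cycles driven by ATP. In flies, constitutive cognates do this work in unstressed cells, and *Hsp68* and the *Hsp70* copies are the stress-inducible members of the family. Their promoters hold a polymerase that has started transcription and paused, and the transcription factor HSF releases it upon HS. The *Hsp70* copies lie in 2 clusters on chromosome arm 3R, *Hsp70Aa* and *Hsp70Ab* in the *Hsp70A* cluster at cytological position 87A and the other 4 in the *Hsp70B* cluster. In the *Hsp70B* cluster the copies are separated by repeats that include the alphagamma element, a heat-inducible noncoding RNA whose start region resembles that of *Hsp70*. *Hsp68* stands alone at 95D. All 8 genes are on 3R in the annotation of the BDGP6 assembly, which is not the build used for the FPKM and serves here for names, strand, length and gene order.

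The FPKM of all genes summed to 923996 and 926922 in the HS libraries and to 831628 and 837852 in the NHS libraries. Values of scarce genes, which fall into steps worth 1 read, placed the depth of the libraries at 60.4% and 69.3% (HS) and at 100% and 77.2% (NHS) of NHS replicate 1. Of 10 haemocyte markers, 9 were at 1 FPKM or more in every library, and their sum was 501 and 568 FPKM in HS cells and 482 and 587 FPKM in NHS cells. The exception was *NimC1*, a phagocytosis receptor gene of larval blood cells, which was at or near 0. The sums hide differences between replicates 1 and 2 that had the same direction in both conditions. *Hml* stood at 4.45 and 20.7 FPKM in HS cells and at 5.69 and 22.5 FPKM in NHS cells. *He* went the other way, at 5.36 and 1.21 FPKM in HS cells and 5.97 and 1.09 FPKM in NHS cells. Of the 9, only *drpr*, an engulfment receptor gene, passed an adjusted p of 0.05 by limma, and it was lower, at 21.4 and 22.1 FPKM in HS cells, against 35.6 and 39.8 FPKM in NHS cells. Of 9 matched markers of other tissues, 7 were under 1 FPKM in every library, and the exceptions were *elav* and *Mef2*.

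*Hsp68* had the highest level of the 8 genes after HS. It stood at 10271 and 9667 FPKM in the HS libraries, against 22.1 and 20.3 FPKM in the NHS libraries. The means were 9969 ± 427 FPKM in HS cells and 21.2 ± 1.24 FPKM in NHS cells (SD, n = 2 each), a ratio of 471. On the log2(FPKM + 1) scale the fold change was 8.81 (standard error, SE, 0.092, limma adjusted p = 0.00013, Benjamini-Hochberg over 7815 genes). The groups were far apart and the 2 libraries of each differed little, by 6.25% in HS and 8.67% in NHS cells. *Hsp68* was the 8th most abundant of all genes in each HS library and the 3985th and 4155th in the NHS libraries. It made up 1.11% and 1.04% of all FPKM in HS cells. In RNA from whole cultures, more cells with an RNA and more of it per cell cannot be told apart.

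The 6 *Hsp70* copies are near-identical, and a read that fits several of them cannot be placed, so their summed FPKM was tested as a single row. The sum stood at 666 and 630 FPKM in the HS libraries, against 1.63 and 2.20 FPKM in the NHS libraries. The means were 648 ± 25.8 FPKM in HS cells and 1.91 ± 0.399 FPKM in NHS cells (SD, n = 2 each), a ratio of 338. The log2 fold change of the sum was 7.80 (SE 0.13, limma adjusted p = 0.00031 over 7813 rows, with the copies replaced by their sum), and with no minimum on FPKM the adjusted p was 0.0013. The listed *Hsp70* RNA was thus far higher after HS, but it stayed well below *Hsp68*. Within a library, *Hsp68* was 15.4 times the summed *Hsp70* in each of the HS libraries, against 13.5 and 9.24 times in the NHS libraries. The sum ranked 153rd and 161st among all genes in HS cells, and 7243rd and 7065th in NHS cells. Of the 6 copies, 3 are listed at 0 after HS, so the HS sum is the sum of what is listed for the other 3. Whether it leaves out reads of the copies listed at 0 was not tested. Its rank and its ratio to *Hsp68* are thus those of listed values only.

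The alphagamma element RNA, which encodes no protein, stood at 2607 and 2846 FPKM in the HS libraries, against 22.9 and 25.4 FPKM in the NHS libraries. The means were 2727 ± 169 FPKM in HS cells and 24.2 ± 1.75 FPKM in NHS cells (SD, n = 2 each), a ratio of 113 and a log2 fold change of 6.76 (SE 0.10, limma adjusted p = 0.00016). Its groups did not overlap, and its level after HS was second to *Hsp68* and above the summed *Hsp70* as listed. It was 0.254 and 0.294 times *Hsp68* in the HS libraries, against 1.04 and 1.25 times in the NHS libraries. Against the summed *Hsp70* it was 3.91 and 4.52 times as high in HS cells and 14.0 and 11.6 times as high in NHS cells. The HS sum holds only the copies not listed at 0, so its comparison with the alphagamma element is one of listed values only. In each comparison its share was smaller after HS than before in all libraries, a difference between genes that was not tested. The gene lies on the minus strand between *Hsp70Ba* and *Hsp70Bbb*, and no other gene of the table is annotated there. The annotation places 38 transposable element fragments in that interval, 17 of them Dm88 and 15 invader1, and 5 overlap the alphagamma gene. Reads from repeated units outside the annotated gene cannot be told apart from its own.

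**Figure D1:**
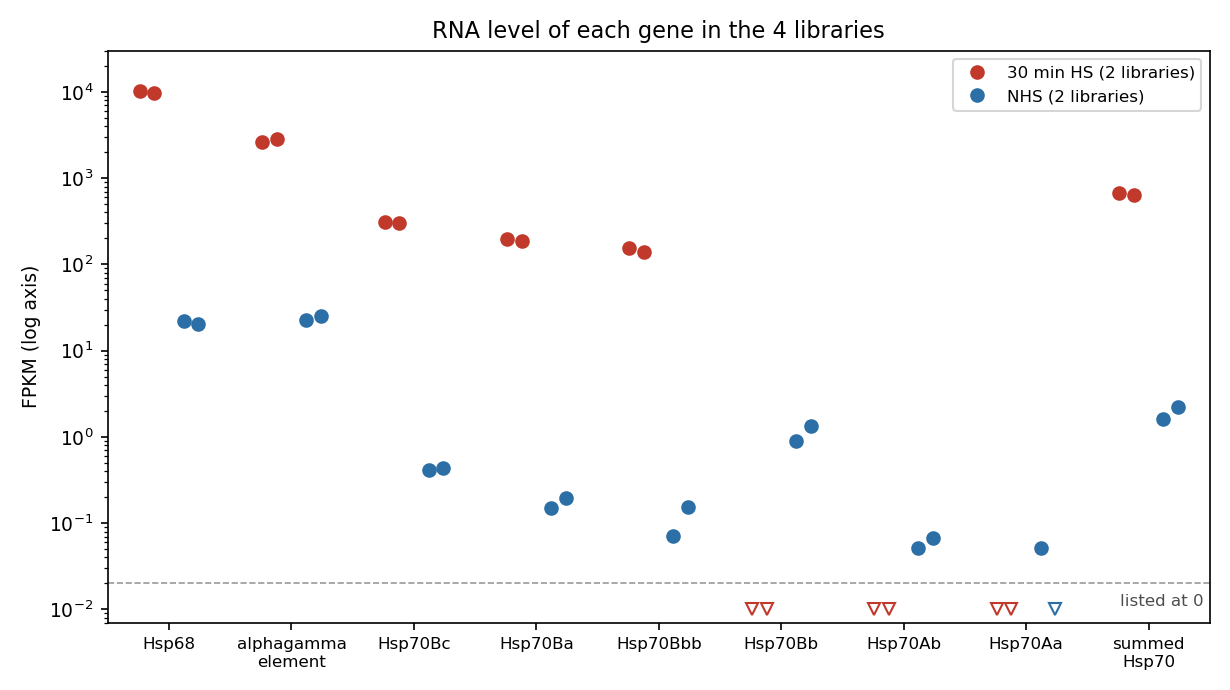
RNA level in FPKM on a log axis for each of the 8 genes and for the summed *Hsp70* copies, with a point for each library (red, 2 HS libraries; blue, 2 NHS libraries) and open triangles for values listed at 0. *Hsp68* reached 10271 and 9667 FPKM in HS cells and was at 22.1 and 20.3 FPKM in NHS cells, while *Hsp70Bb*, *Hsp70Ab* and *Hsp70Aa* are listed at 0 in each HS library.

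At an adjusted p under 0.001, 5 of the 8 genes were higher and 0 lower in HS cells by limma, against 0.128% of all tested genes called higher (10 of 7815). The study used the same FDR with another test, DESeq2 on raw counts, so the numbers of calls are not comparable. The same 5 passed an adjusted p of 0.05, a threshold at which 1.75% of tested genes were higher. These 5 were *Hsp68*, *Hsp70Bc*, *Hsp70Ba*, *Hsp70Bbb* and the alphagamma element. A gene was tested if its FPKM averaged 1 or more across libraries, and 3 of the 8 (*Hsp70Aa*, *Hsp70Ab* and *Hsp70Bb*) were under it. *Hsp70Bc*, *Hsp70Ba* and *Hsp70Bbb* passed this minimum through their HS values alone, so they had to differ to be tested. *Hsp68* and the alphagamma element were above it in each of the 4 libraries. In these 5, both HS libraries also lay above both NHS libraries, as they did in 20.5% of all tested genes. Without any 1 of the 4 libraries, 0 of the 8 genes passed 0.001 and 5 passed 0.05. In those fits 0 of all tested genes were higher at 0.001, and between 28 and 62 were higher at 0.05. For *Hsp68* the adjusted p then lay between 0.0026 and 0.022, with log2 fold changes between 8.76 and 8.87. For the summed *Hsp70* it lay between 0.0029 and 0.031, with log2 fold changes between 7.66 and 7.95. By size of log2 fold change, *Hsp68* ranked 1st of the tested genes, *Hsp70Bc*, *Hsp70Ba* and *Hsp70Bbb* 4th to 6th and the alphagamma element 8th, an order that depended on the pseudocount.

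**Figure D2:**
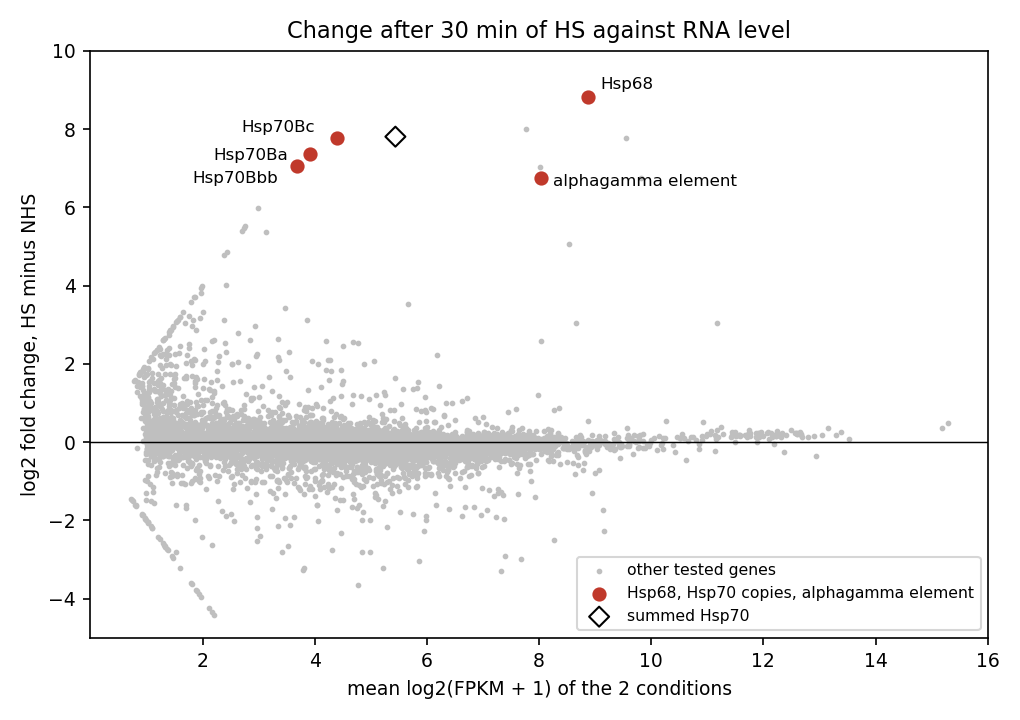
Log2 fold change (HS minus NHS) of the 7815 tested genes against their mean log2(FPKM + 1), with 5 of the 8 genes in red and the summed *Hsp70* as an open diamond. The red points lie between 6.76 and 8.81, far above the bulk of the genes, whose median was -0.02.

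The single copies differed in how the table lists them. *Hsp70Bc*, the outermost copy of the *Hsp70B* cluster, stood at 314 and 305 FPKM in the HS libraries, against 0.413 and 0.436 FPKM in the NHS libraries (log2 fold change 7.77 with SE 0.093, limma adjusted p = 0.00013). *Hsp70Ba*, on the minus strand at the other end of the cluster, stood at 198 and 186 FPKM in HS cells, against 0.149 and 0.193 FPKM in NHS cells (log2 fold change 7.36 with SE 0.10, limma adjusted p = 0.00013). *Hsp70Bbb* stood at 155 and 139 FPKM in HS cells, against 0.0708 and 0.153 FPKM in NHS cells (log2 fold change 7.05 with SE 0.12, limma adjusted p = 0.00019). These 3 copies kept the order *Hsp70Bc*, *Hsp70Ba*, *Hsp70Bbb* in each HS library with no overlap between them. In NHS cells *Hsp70Ba* and *Hsp70Bbb* overlapped.

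*Hsp70Bb*, which lies between *Hsp70Bbb* and *Hsp70Bc* on the same strand, had the reverse pattern. It is listed at 0 in both HS libraries, against 0.896 and 1.35 FPKM in the NHS libraries, where it was the highest of the 6 copies. Its annotated transcript has the same length as that of *Hsp70Bbb*, 2347 nt. *Hsp70Ab* is listed at 0 in both HS libraries, against 0.0519 and 0.0673 FPKM in the NHS libraries. *Hsp70Aa*, which faces away from *Hsp70Ab* at 87A, is listed at 0 in both HS libraries, against 0.0517 and 0 FPKM in the NHS libraries. No copy of the 87A cluster therefore has a value above 0 after HS, and all listed *Hsp70* RNA of HS cells is in the *Hsp70B* cluster. With no minimum on FPKM, *Hsp70Bb* was lower in HS cells at an adjusted p under 0.05 (log2 fold change -1.08 with SE 0.13, limma adjusted p = 0.043 over 11738 genes). This call rests on its listed zeros, which show no spread between the HS libraries. In the same limma fit *Hsp70Ab* (-0.08, adjusted p = 0.46) and *Hsp70Aa* (-0.04, adjusted p = 0.78) did not pass. A value of 0 in this table is reported only as listed, since 3864 genes are at 0 in all 4 libraries and no source used here states how reads that fit several copies were counted.

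The division of the summed *Hsp70* among its copies repeated closely between the HS libraries, varied more between the NHS libraries, and differed between conditions. *Hsp70Bc* took 47.1% and 48.4% of the sum in the HS libraries, against 25.3% and 19.8% in the NHS libraries. *Hsp70Ba* took 29.7% and 29.6% in HS cells, against 9.11% and 8.79% in NHS cells, and *Hsp70Bbb* took 23.2% and 22.1%, against 4.34% and 6.97%. *Hsp70Bb* took 0% in HS cells, against 54.9% and 61.3% in NHS cells. The copy that held most of the listed RNA before HS thus held none of it after HS. Whether the division reflects the copies themselves or the assignment of shared reads was not tested. When the sum was taken over *Hsp70Bc*, *Hsp70Ba* and *Hsp70Bbb* alone, a choice made after the values were seen, its log2 fold change was 8.57 (adjusted p = 0.00014 from limma).

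**Figure D3:**
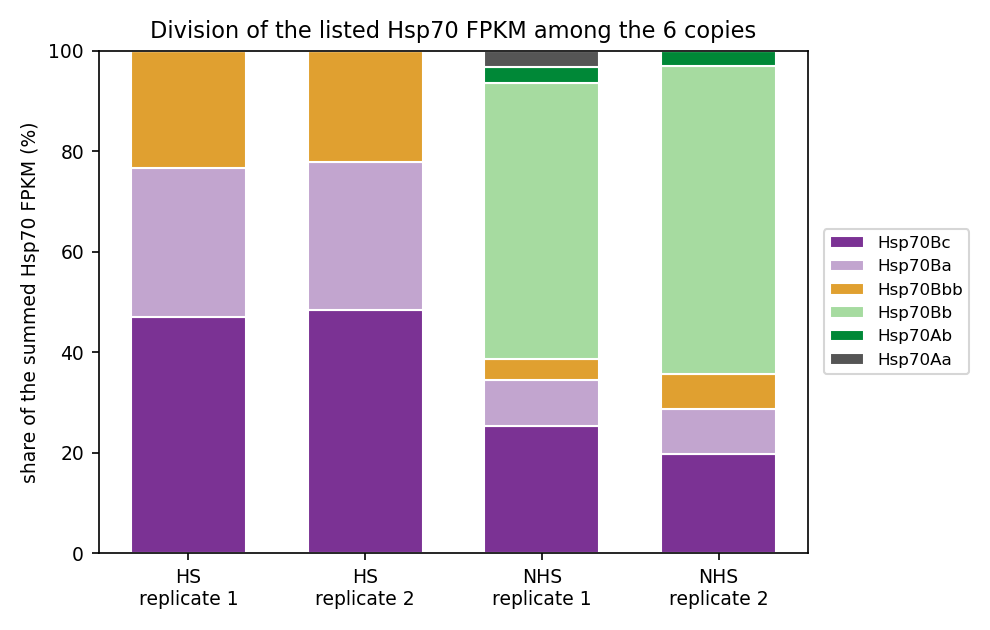
Share of the summed *Hsp70* FPKM (percent) listed for each of the 6 copies in each library, HS libraries on the left. *Hsp70Bc*, *Hsp70Ba* and *Hsp70Bbb* fill the HS bars, with 47.1% and 48.4% for *Hsp70Bc*, and *Hsp70Bb* takes 54.9% and 61.3% of the NHS bars.

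The NHS values of the single copies rest on few reads. From the steps of scarce genes with transcripts of similar length, the NHS values of *Hsp70Bb* were worth about 33.8 and 39.2 reads and those of *Hsp70Bc* about 15.8 and 12.9 reads. *Hsp70Ba* was worth about 5.55 and 5.56 reads and *Hsp70Bbb* about 2.67 and 4.45 reads in NHS cells. *Hsp70Ab* was worth about 1.98 reads in each NHS library, and *Hsp70Aa* about 1.98 reads in NHS replicate 1. These are estimates, since the lowest step held between 30.7% and 62.4% of the scarce genes used. For the summed copies the estimate was 15264 and 16594 reads in the HS libraries, against 61.7 and 64.1 reads in the NHS libraries. *Hsp68* was worth about 221501 and 239432 reads in HS cells, against 788 and 559 reads in NHS cells. The alphagamma element was worth about 31856 and 39745 reads in HS cells, against 466 and 396 reads in NHS cells. The levels of *Hsp68* and the alphagamma element thus rested on far more reads in each condition, and those of *Hsp70Aa*, *Hsp70Ab*, *Hsp70Ba* and *Hsp70Bbb* before HS were near the limit of detection at this depth.

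The order of the fold changes depended on the pseudocount. With 0.1 in place of 1, *Hsp70Ba* (9.47), *Hsp70Bbb* (9.46) and *Hsp70Bc* (9.20) lay above *Hsp68* (8.87) on the log2 scale. With 5 they lay at 5.25, 4.89 and 5.86, below the alphagamma element (6.55) and *Hsp68* (8.57). The summed *Hsp70* lay below *Hsp68* with each pseudocount, at 8.34, 7.80 and 6.56 with 0.1, 1 and 5. This order holds for a sum that includes *Hsp70Bb*, 54.9% and 61.3% of it in NHS cells and listed at 0 after HS. The sum of *Hsp70Bc*, *Hsp70Ba* and *Hsp70Bbb* alone lay at 8.57 with 1 and was not fitted with 0.1 or 5. *Hsp68* and the alphagamma element moved little, and each value stayed at an adjusted p under 0.001 by limma.

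**Figure D4:**
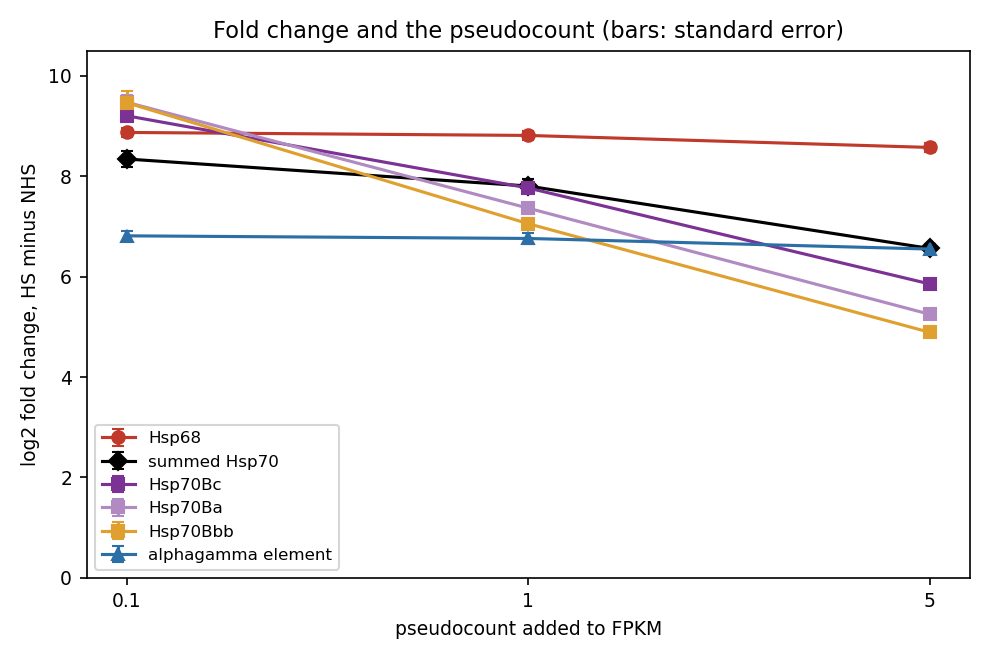
Log2 fold change (HS minus NHS) of the 5 tested genes and the summed *Hsp70* with 0.1, 1 or 5 added to FPKM before the log, equally spaced on the axis, with bars for the standard error. *Hsp70Ba* is at 9.47 with 0.1 and at 5.25 with 5, whereas *Hsp68* stays between 8.57 and 8.87.

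Most of the genes around the 3 loci did not pass the test. Of 29 genes within 20 kb of *Hsp68*, an *Hsp70* copy or the alphagamma element, 26 could be tested. By limma at 0.05, 2 were higher and 1 was lower, where 1.75% and 1.56% of all tested genes were called. Their median log2 fold change was 0.03, and 20 of the 26 lay within 0.5 of no change. At 95D 0 of 9 genes passed, and their log2 fold changes ranged from -0.27 to 0.34. *CG6000*, which overlaps the end of *Hsp68* on the opposite strand, stood at 31.7 and 43.3 FPKM in HS cells, against 25.5 and 33.1 FPKM in NHS cells (log2 fold change 0.34, adjusted p = 0.53).

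At 87A the gene listed lower was *CG3281*, which overlaps the end of *Hsp70Ab* on the opposite strand. It is listed at 0 in both HS libraries, against 6.77 and 6.33 FPKM in the NHS libraries (log2 fold change -2.92 with SE 0.19, limma adjusted p = 0.0084). It passed the minimum through its NHS values alone, so its call rests on the listed zeros. Listed zeros occurred in either direction. Of the 6477 genes with at least 5 FPKM in both HS libraries, 15 are listed at 0 in both NHS libraries. Of the 6390 genes with at least 5 FPKM in both NHS libraries, 12 are listed at 0 in both HS libraries. Of these 12, 11 have transcripts under 300 nt, most of them small nucleolar RNAs, and *CG3281* is the only longer gene. The neighbours on either side had values above 0 in every library. *CG31211* stood at 26.6 and 26.2 FPKM in HS cells, against 20.1 and 21.0 FPKM in NHS cells (adjusted p = 0.17). *aurA*, a mitotic kinase gene, stood at 44.1 and 35.4 FPKM in HS cells, against 30.2 and 24.1 FPKM in NHS cells (adjusted p = 0.23). The zeros at 87A thus covered *Hsp70Aa*, *Hsp70Ab* and the gene that overlaps *Hsp70Ab*, and why they are listed so was not tested.

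Farther from the copies, *CG12224* at 87A was higher in HS cells, at 9.40 and 9.68 FPKM, against 1.12 and 1.45 FPKM in NHS cells (log2 fold change 2.21 with SE 0.16, limma adjusted p = 0.0091). *CG18547*, next to it, stood at 11.4 and 8.84 FPKM in HS cells, against 4.24 and 3.86 FPKM in NHS cells (log2 fold change 1.13, limma adjusted p = 0.051). Beside these, *CG10005* (1.33 and 1.06 FPKM in HS, 0.200 and 0.346 in NHS cells) and *GC2* were under the minimum and also listed higher. *Octbeta3R*, an octopamine receptor gene that ends next to *Hsp70Bc* on the opposite strand, was also higher, at 3.84 and 3.29 FPKM in HS cells, against 0.0617 and 0.0211 FPKM in NHS cells (log2 fold change 2.13 with SE 0.22, limma adjusted p = 0.024). It passed the minimum through its HS values alone. *CG5608*, next to *Hsp70Ba*, stood at 11.0 and 11.1 FPKM in HS cells, against 14.1 and 17.2 FPKM in NHS cells (log2 fold change -0.46, limma adjusted p = 0.19). On the same side, *CG5509* stood at 2.29 and 2.45 FPKM in HS cells, against 0.742 and 0.688 FPKM in NHS cells (log2 fold change 0.97, limma adjusted p = 0.098). It too passed the minimum through its HS values alone.

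**Figure D5:**
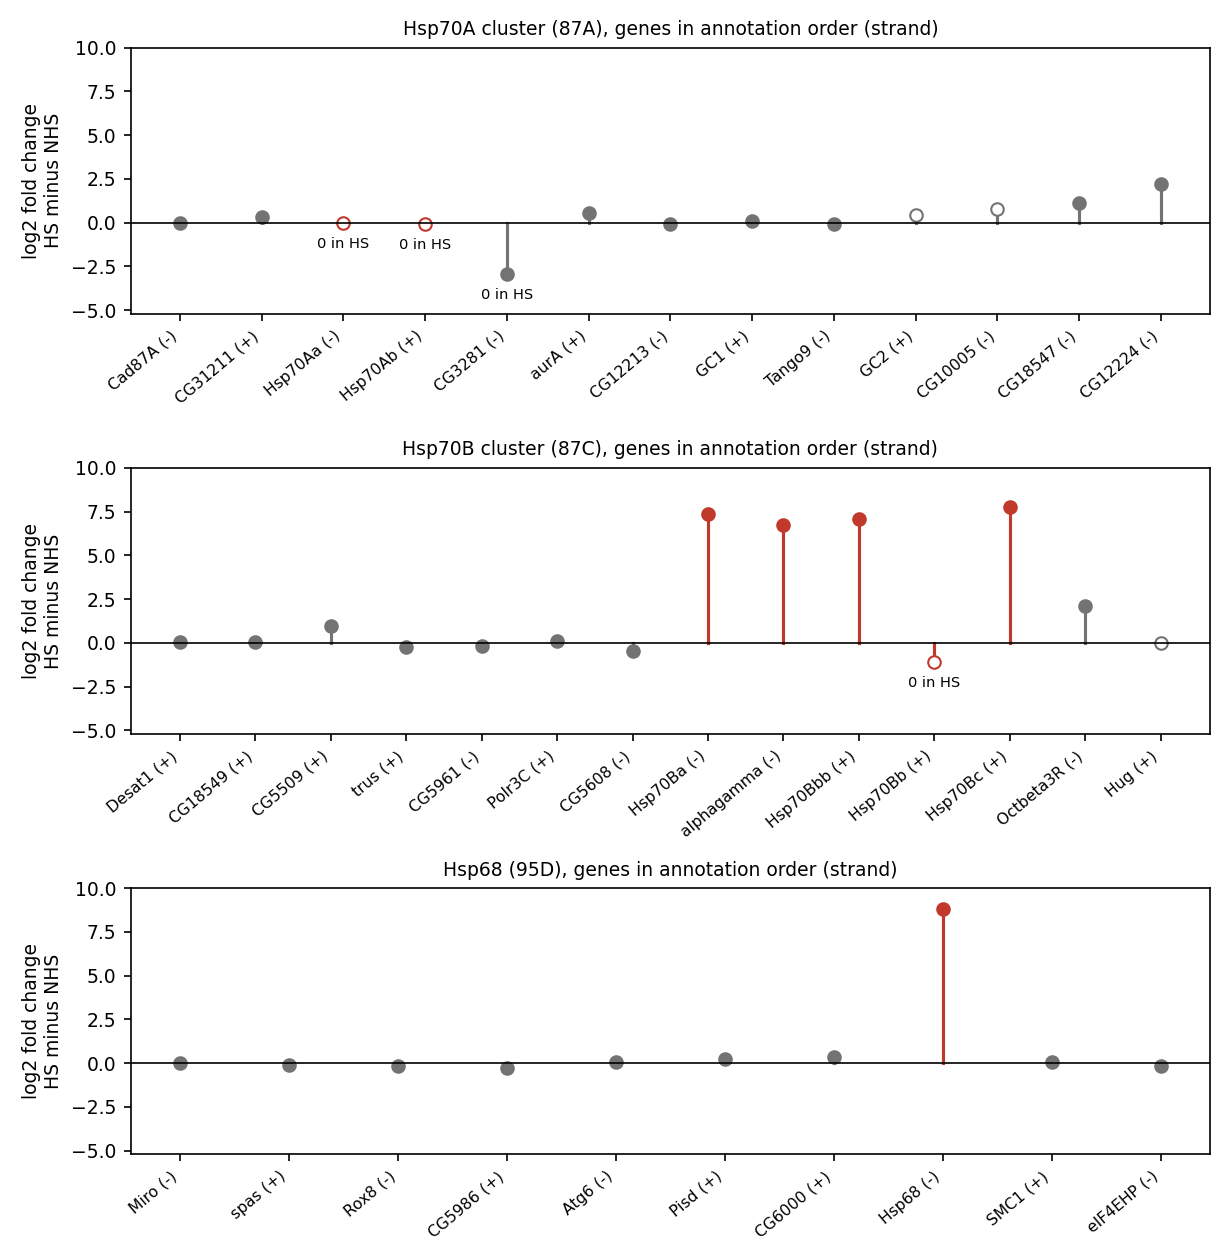
Log2 fold change (HS minus NHS) of the genes within 20 kb of the *Hsp70A* cluster (87A), the *Hsp70B* cluster and *Hsp68* (95D) in annotation order, with the strand in brackets, the 8 genes in red, their neighbours in grey, and open circles for genes under the minimum that were not tested. At 87A *CG3281* (-2.92) is listed at 0 in HS cells beside *Hsp70Ab*, and at 95D only *Hsp68* (8.81) stands off the line.

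HSP70 works with J-domain proteins, which bring it substrates, and with nucleotide exchange factors, which release them. Of 18 partners and regulators, 17 were matched to the table and 15 tested. By limma at 0.05, 3 were higher, 1 was lower and 11 did not pass, against 1.75% of all tested genes called higher and 1.56% called lower. The median log2 fold change of the list was 0.11, against -0.02 over all tested genes. *DnaJ-1*, an HSP40 co-chaperone gene, stood at 1958 and 2368 FPKM in HS cells, against 62.6 and 64.0 FPKM in NHS cells. *stv*, a BAG-domain exchange factor gene, stood at 49.9 and 61.0 FPKM in HS cells, against 0.418 and 0.287 FPKM in NHS cells, and passed the minimum through its HS values alone. *Hsp83*, the HSP90 gene and the most abundant of the 17 matched genes, stood at 6748 and 6454 FPKM in HS cells, against 776 and 821 FPKM in NHS cells. All 3 stayed below *Hsp68* after HS, and *Hsp83* and *DnaJ-1* were above it in NHS cells. *mrj*, another J-domain gene, was lower, at 25.7 and 24.3 FPKM in HS cells, against 42.5 and 46.4 FPKM in NHS cells (adjusted p = 0.039). *Hsf*, the gene of the activator itself, stood at 67.5 and 57.9 FPKM in HS cells, against 51.0 and 45.9 FPKM in NHS cells (log2 fold change 0.36, adjusted p = 0.24). The cognates *Hsc70-3* and *Hsc70-5* of the endoplasmic reticulum and the mitochondrion had log2 fold changes of 0.37 (adjusted p = 0.30) and 0.21 (adjusted p = 0.31).

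The other inducible HS genes included those with the profiles nearest to *Hsp68*. All 8 of this list were tested. By limma at 0.05, 7 were higher and 1 did not pass, against 1.75% of all tested genes called higher. The median log2 fold change of the list was 5.39. By Euclidean distance between centred log2(FPKM + 1) profiles over the 4 libraries, the genes nearest to *Hsp68*, leaving out the other 7 of the 8 genes, were the small HSP genes *Hsp22* (0.855), *Hsp26* (1.18), *Hsp27* (1.80) and *Hsp23* (2.07), followed by the kinase gene *Gprk2* (2.86), which is listed at 0 in both NHS libraries. With the 8 genes left out, the same 5 were nearest to the summed *Hsp70*, led by *Hsp22* (0.541). After HS the most abundant of the list was *Hsp26*, at 12838 and 9713 FPKM in HS cells, against 67.6 and 36.6 FPKM in NHS cells. *Hsp26* exceeded *Hsp68* in each HS library, by little in replicate 2, so that their HS values overlapped, and those of *Hsp23* (10860 and 8092 FPKM) overlapped *Hsp68* too. The HS replicates of *Hsp26* and *Hsp23* differed by 32.2% and 34.2%, more than those of *Hsp68* (6.25%). Of the remaining genes called higher, *Hsp67Bc* had a log2 fold change of 4.02, *Hsromega*, a noncoding RNA gene, of 2.58 and *Hsp67Ba* of 1.68 (limma adjusted p = 0.0035, 0.0096 and 0.039). *Hsp67Bc* passed the minimum through its HS values alone, at 23.3 and 17.9 FPKM in HS cells, against 0.359 and 0.279 FPKM in NHS cells. The gene that did not pass was *CG4456*, also named *Hsp67Bb*. It stood at 0 and 1.82 FPKM in HS cells, against 0.901 and 3.81 FPKM in NHS cells (log2 fold change -0.85, limma adjusted p = 0.65).

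Over all 8 genes, the order of listed values after HS was *Hsp68*, the alphagamma element, *Hsp70Bc*, *Hsp70Ba* and *Hsp70Bbb*, with no overlap between neighbours. The 3 copies listed at 0 came last. How reads shared by copies were counted is not stated, so the place of each *Hsp70* copy is that of its listed value only. Before HS the alphagamma element and *Hsp68* lay close together, between 20.3 and 25.4 FPKM, and did not overlap. They were followed by *Hsp70Bb* and *Hsp70Bc*, then by *Hsp70Ba* and *Hsp70Bbb*, which overlapped, and by *Hsp70Ab* and *Hsp70Aa*, which did not exceed 0.0673 FPKM. Together the 8 genes made up 1.47% and 1.42% of all FPKM in HS cells, against 0.0056% and 0.0057% in NHS cells, most of it from *Hsp68* and the alphagamma element.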

How the data were processed

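RNA-seq libraries of S2 cells (2 biological replicates each after 30 min of HS and before HS) were analysed, and PRO-seq samples were not used here. The authors removed adapters, aligned reads of at least 20 nt to dm3 with TopHat2 (strand setting fr-firststrand) and deposited FPKM per gene from Cuffnorm. Versions, the scaling between libraries and the handling of reads with several alignments are not given in the sources used here. FPKM are relative to the library, so a loss common to all RNAs leaves them unchanged. Symbols were found for 14924 of 15602 genes.

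The 7815 genes averaging 1 FPKM or more were tested as log2(FPKM + 1) with limma 3.58.1 in R 4.3.3 (variance trend, condition as the only term, Benjamini-Hochberg adjustment). Genes were named by rule: all 8 genes, called or most abundant genes of 2 lists, neighbours called or of largest change, and the 5 nearest profiles. *CG6000*, *CG31211*, *aurA*, *CG5608*, *CG18547*, *CG10005*, *GC2*, *CG5509*, *Hsf*, *Hsc70-3*, *Hsc70-5*, *CG4456* and the cell markers fall outside this rule and were named after their values were seen. The 8 genes and the lists were chosen with earlier results of these data known. *Hsc70Cb* was matched as *Hsp110*, *Hsp67Bb* as *CG4456* and *nos* as *nanos*. The identifiers that the reference tables give for *Hsc70-4* and *vas* matched no row, so these genes were not analysed here. Read numbers were estimated from the lowest step of FPKM times length among single-transcript genes within 400 nt of the length. The 14 alternatives and 1 added later are described below. Python 3.11.15, numpy 2.4.6 and pandas 2.3.3 were also used.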

Additional observations from a re-analysis of the deposited data

How the results depend on the processing

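The log2 fold changes of *Hsp68*, the summed *Hsp70* and the alphagamma element were 6.52 or more and passed 0.001 by limma in the settings that kept all 4 libraries, except the summed *Hsp70* with no filter (7.80, adjusted p = 0.0013). Leaving out each library in turn ended these calls at 0.001 and none at 0.05, with ranges of 8.76 to 8.87, 7.66 to 7.95 and 6.69 to 6.83, and with 0 of the 8 genes at 0.001. *Hsp70Bbb* missed 0.001 with no filter (7.05, adjusted p = 0.0016) and under quantile normalization (6.91, adjusted p = 0.0018). Summing only the 3 copies above 0 after HS, chosen after seeing the data, gave 8.57. Scaling to ribosomal protein mRNAs gave a median over all genes of -0.25 and equal totals one of -0.16, against -0.02, and *Hsp68* lay at 8.58 and 8.67. With the replicate number as a block *Hsp68* kept 8.81 (adjusted p = 3.2e-05), the summed *Hsp70* 7.80 and the alphagamma element 6.76. The numbers come from column names, with no shared batch stated, and across 7815 genes the deviations of libraries with the same number had a correlation of 0.22. With the block 334 of all genes were higher at 0.05, with no filter 280 and with a filter of 5 FPKM 60, against 137. At 0.001 the count was 5 with no filter and 6 under quantile normalization or without a variance trend, against 10. The NHS values of *Hsp70Ba* and *Hsp70Bbb* rest on a few reads, and differences between copies were not tested.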
